A study of Homo sapiens with 9 samples.

Results

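The transcripts described here are those of 9 genes through which cells bind, carry and break down retinoic acid: the receptor genes RARA, RARB, RARG, RXRA and RXRB, the carrier genes CRABP1 and CRABP2, and the hydroxylase genes CYP26A1 and CYP26B1. They were taken by gene symbol from a table of 25084 genes, and all 9 were found. RNA was sequenced from LAN5, an established human neuroblastoma line with an amplified MYCN gene, grown in RPMI-1640 with fetal calf serum. Small interfering RNAs (siRNAs) were introduced by nucleofection, and RNA was taken after 72 h. The 9 libraries, 3 per group, differed in the siRNA given: siCTR, a control sequence, siMYCN_2, directed at MYCN (siMYCN), or siHAND2_3, directed at HAND2 (siHAND2). Each target was met by 1 siRNA sequence in 1 cell line, so effects on the target and off-target effects of that siRNA cannot be told apart. Nothing in the labels says whether replicates were separate cultures, and the p-values then measure only the spread between these libraries.

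Retinoic acid is made from vitamin A and acts as a ligand of nuclear receptors. A retinoic acid receptor (RAR) pairs with a retinoid X receptor (RXR) on DNA, holds corepressors without ligand and recruits coactivators once ligand is bound. The cellular carriers CRABP1 and CRABP2 take retinoic acid to different places: CRABP2 delivers it to the receptors in the nucleus, and CRABP1 is linked to its retention and breakdown in the cytoplasm. The CYP26 enzymes degrade it, and RARB, CYP26A1 and CRABP2 are themselves induced by it. In neuroblastoma, retinoic acid drives differentiation of cultured cells, and isotretinoin is used in treatment.

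The 9 genes have 17 start windows in the RefSeq table of promoters (GRCh38.p14), each of 300 bases, 250 before to 50 after a start. They were searched on both strands for the retinoic acid response element DR5 (direct half-sites with a spacer of 5 bases), for DR2 (spacer of 2 bases), for CACGTG, the E-box preferred by MYC proteins, and for CANNTG, the general E-box of helix-loop-helix factors such as HAND2, which includes CACGTG. DR5 matched 2 of the 17 windows and 0.088% of all 35116 windows of the table, and DR2 matched none of the 17 and 0.04% of all. CACGTG matched 2 of the 17 (7.26% of all), and CANNTG matched 11 of the 17 (68.7% of all). The windows with a DR5 match belonged to RARB and CYP26A1. They are shown with the windows of CRABP1 and CRABP2, because the transcripts of RARB and of the carriers differed most between the groups among the 9. All are written 5′ to 3′ on the strand of the gene, with DR5 and CANNTG matches in capitals.
RARB, chr3:25428013-25428312, plus strand: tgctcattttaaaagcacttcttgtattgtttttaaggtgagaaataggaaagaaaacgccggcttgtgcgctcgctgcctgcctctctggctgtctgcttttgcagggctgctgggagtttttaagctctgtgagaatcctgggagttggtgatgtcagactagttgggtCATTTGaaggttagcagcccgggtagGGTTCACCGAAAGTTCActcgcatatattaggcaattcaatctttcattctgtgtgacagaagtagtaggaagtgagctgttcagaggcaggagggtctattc
CYP26A1, chr10:93073643-93073942, plus strand: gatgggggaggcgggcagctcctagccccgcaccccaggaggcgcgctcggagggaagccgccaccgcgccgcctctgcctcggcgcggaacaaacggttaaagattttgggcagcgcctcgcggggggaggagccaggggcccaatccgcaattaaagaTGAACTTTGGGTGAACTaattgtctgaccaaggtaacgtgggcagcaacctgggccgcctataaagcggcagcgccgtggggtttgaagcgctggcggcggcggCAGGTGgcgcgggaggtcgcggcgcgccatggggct
CRABP1, chr15:78340103-78340402, plus strand: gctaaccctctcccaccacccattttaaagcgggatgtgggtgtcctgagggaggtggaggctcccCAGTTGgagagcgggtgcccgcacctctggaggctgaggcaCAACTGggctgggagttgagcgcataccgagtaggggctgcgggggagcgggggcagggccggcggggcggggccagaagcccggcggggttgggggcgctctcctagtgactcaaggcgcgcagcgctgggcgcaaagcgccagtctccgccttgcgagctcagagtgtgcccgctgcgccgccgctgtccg
CRABP2, chr1:156705735-156706034, minus strand: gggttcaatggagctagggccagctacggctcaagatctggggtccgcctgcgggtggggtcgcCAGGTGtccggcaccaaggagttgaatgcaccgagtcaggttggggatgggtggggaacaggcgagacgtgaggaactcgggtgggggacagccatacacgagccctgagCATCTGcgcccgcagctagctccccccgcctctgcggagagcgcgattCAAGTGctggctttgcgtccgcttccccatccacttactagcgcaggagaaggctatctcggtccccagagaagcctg

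In the RARB window the DR5 match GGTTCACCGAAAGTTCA began at position -53 from the start, on the strand of the gene. In the CYP26A1 window the match lay on the other strand (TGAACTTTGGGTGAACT as printed) and began at -90. The other 3 RefSeq windows of RARB and the other window of CYP26A1 held no DR5 match. That other CYP26A1 window (chr10:93073225-93073524) held CACGTG at -76 and at -20. The second window with CACGTG belonged to RARA (chr17:40317995-40318294), with the match at position 34 after the start. The CRABP1 window held 2 CANNTG matches and the CRABP2 window 3. A match is a description of the letters, and neither binding nor the start site in use was measured.

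The reads assigned to genes numbered 21.1 M to 32.7 M per library, as read from the smallest step between values, and levels are given as counts per 1000000 assigned reads (CPM). MYCN fell from a mean of 1842 ± 54.2 CPM in siCTR to 1289 ± 47.0 CPM in siMYCN and 914 ± 48.4 CPM in siHAND2, and HAND2 fell from 501 ± 13.7 to 272 ± 7.65 CPM in siHAND2 (SD, n = 3 libraries each). HAND2 was higher in siMYCN, at 571 ± 15.9 CPM (0.19, limma, adjusted p = 0.00183). By limma the changes from siCTR were -0.51 for MYCN in siMYCN (adjusted p = 7.15e-07), -1.01 for MYCN in siHAND2 (adjusted p = 1.72e-10) and -0.88 for HAND2 in siHAND2 (adjusted p = 1.25e-10), so both transcripts were lowered in siHAND2. Between the knockdowns MYCN (-0.50, limma, adjusted p = 6.21e-07) and HAND2 (-1.07, limma, adjusted p = 9.48e-12) were both lower in siHAND2. Their parts in differences between the knockdowns cannot be told apart. Of 8 markers of noradrenergic neuroblastoma cells, 7 had a mean of at least 5 CPM in each group, the exception being TH. Only 2 of 5 leukocyte markers were in the table, and they summed to at most 0.655 CPM in any library. Endothelial markers summed to at most 1.19 CPM and Schwann cell markers to at most 2.68 CPM. The noradrenergic markers moved with the knockdowns: in siMYCN all but CHGA were higher, among them CHGB (0.70) and DBH (0.38), and in siHAND2 DBH (-1.01), TH (-0.70) and DDC (-0.25) were lower while STMN2 (0.95) and GAP43 (0.77) were higher (limma, all called). Of 8 markers of the mesenchymal neuroblastoma state, 7 were in the table, none was at 0, and they summed to 710 to 748 CPM in siCTR, 906 to 952 CPM in siMYCN and 1290 to 1445 CPM in siHAND2. VIM made up most of that sum, with means of 525, 696 and 1011 CPM, and the markers did not all move one way. In siHAND2 VIM, FN1, SNAI2 and NOTCH2 were higher and CD44 was lower (-0.39, limma, adjusted p = 0.00794), and in siMYCN VIM and FN1 alone of the 5 tested were called. In RNA from whole cultures, more cells of a kind and more RNA per cell cannot be told apart.

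Requiring 1 CPM or more in 3 or more libraries left 14495 genes for testing and kept 7 of the 9 retinoid genes. CYP26A1 and CYP26B1 fell below it. CRABP1 passed only with the siMYCN libraries and CRABP2 only with the siHAND2 libraries, the groups in which each was highest. In siMYCN, 3 of the 7 (RARA, RXRA and CRABP1) were higher than in siCTR at an adjusted p below 0.05 and none was lower (limma, Benjamini-Hochberg over all genes tested), where 35.9% of all genes tested were called. In siHAND2, 4 of the 7 (RARA, RARB, RXRA and CRABP2) were higher and none was lower, where 29.9% of all genes were called. With siHAND2 set directly against siMYCN, RARB, RARG, RXRA and CRABP2 were higher and CRABP1 was lower, where 26.9% of all genes were called. The siMYCN libraries lay wholly above the siCTR libraries for 4 of the 7 genes and wholly below for none; over all genes tested the groups stood apart for 49.5%, with siMYCN above for 33.4% and below for 16.1%. The siHAND2 libraries lay wholly above siCTR for 4 of the 7 and below for none, against 42.4% apart over all genes, 25.8% above and 16.6% below. Between the knockdowns, siHAND2 lay wholly above for 3 of the 7 and below for 1, against 38.7% apart over all genes, 17.1% above and 21.6% below. The calls over all genes were 24.5% higher and 11.4% lower in siMYCN, 18.1% higher and 11.8% lower in siHAND2, and 11.4% higher and 15.5% lower between the knockdowns. The median log2 fold change of the 7 was 0.14 in siMYCN, 0.28 in siHAND2 and 0.22 between the knockdowns, beside 0.06, 0.04 and -0.01 over all genes tested. With other scalings the balance of calls over all genes moved. Higher genes made up 68.3% of all calls in siMYCN on the deposited CPM scale, 52.3% under median-ratio scaling and 49.3% under quantile scaling. In siHAND2 these shares were 60.6%, 49.04% and 47.8%, and between the knockdowns 42.4%, 50.3% and 51.9%. Both comparisons use the same siCTR libraries.

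**Figure D1:**
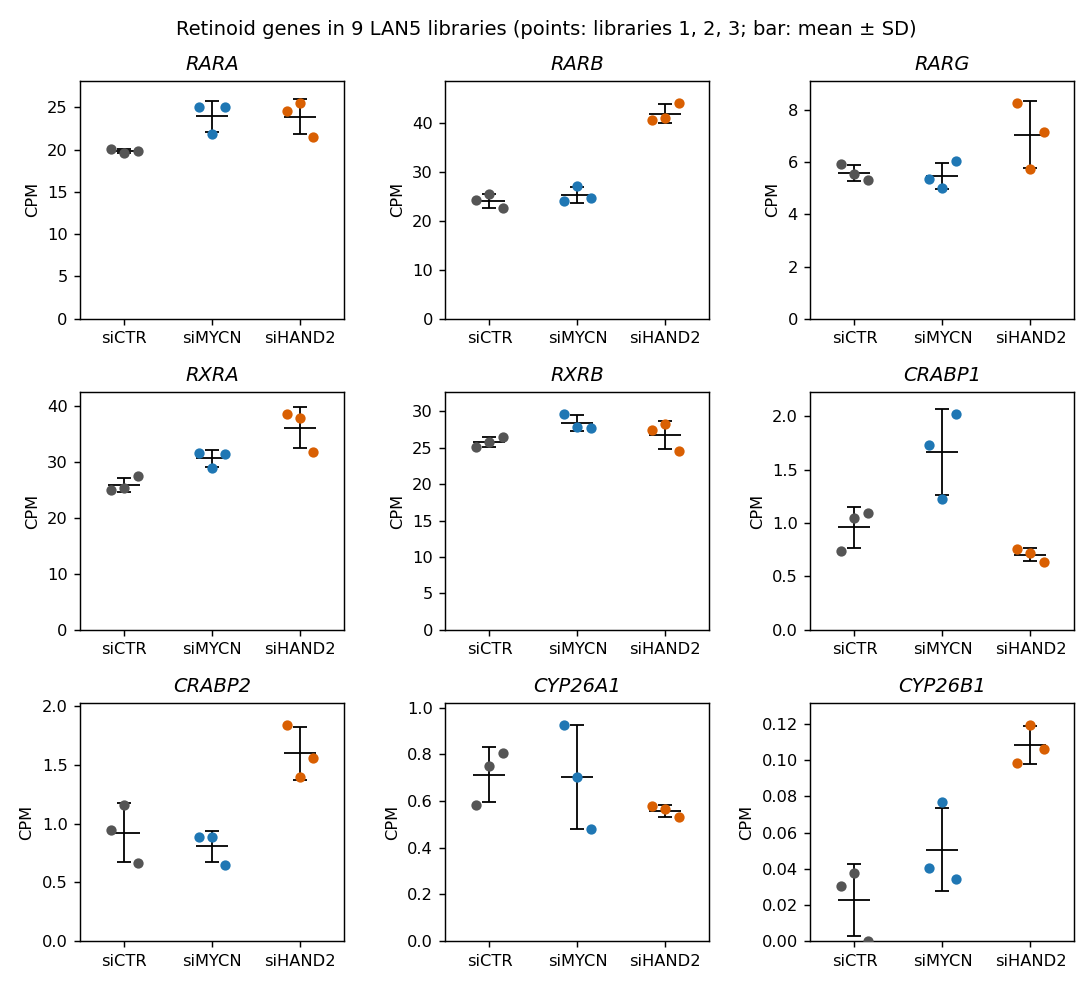
CPM of each retinoid gene (vertical axes, each starting at 0) in the 3 libraries of siCTR, siMYCN and siHAND2, with the mean and SD of each group. The siHAND2 points of RARB lie between 40.6 and 44.2 CPM, above every other library, while CRABP1 is highest in siMYCN and CRABP2 in siHAND2.

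RARB showed the largest difference from siCTR among the 7 genes tested on the log2(CPM + 1) scale, which understates changes of the low carrier genes described below. RARB encodes the RAR isotype whose own promoter answers to retinoic acid, and it lies on chromosome 3 (25174332 to 25597932, GRCh38). It measured 24.3, 25.5 and 22.6 CPM with siCTR, 24.2, 27.3 and 24.8 CPM with siMYCN and 40.6, 41.0 and 44.2 CPM with siHAND2. The siHAND2 libraries lay well above all 6 others, and the siCTR and siMYCN libraries overlapped. RARB rose in siHAND2 to 174% of its siCTR mean, which was 0.77 on the log2(CPM + 1) scale (limma, standard error 0.06, adjusted p = 1.11e-07). In siMYCN the difference was 0.07 (adjusted p = 0.406), with a 95% interval from -0.06 to 0.20. Between the knockdowns RARB was 0.70 higher in siHAND2 (limma, standard error 0.06, adjusted p = 2.68e-07), so the responses of RARB to the siRNAs differed. The rise in siHAND2 kept its call in all 18 alternative settings, between 0.69 and 0.81. The noradrenergic and mesenchymal markers given above also differed between the groups, and their part in the results of the retinoid genes was not tested. The table gives 1 value per gene, so it does not show from which of the RefSeq starts the reads came. RARB overlaps TOP2B on the other strand by 28 bases, and TOP2B lay between 465 and 508 CPM with no order among the groups.

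RARA, the RAR isotype that most cells express, lies on chromosome 17 (40309180 to 40357643). It measured 20.04, 19.6 and 19.9 CPM with siCTR, 25.1, 21.8 and 25.0 CPM with siMYCN and 24.6, 25.6 and 21.5 CPM with siHAND2. Every knockdown library lay above every siCTR library, and the knockdowns overlapped each other. RARA rose by 0.26 to 121% of its control level with siMYCN (limma, adjusted p = 0.01) and by 0.25 to 120.4% with siHAND2 (adjusted p = 0.0133). The direct difference was -0.004 (95% interval -0.16 to 0.15, adjusted p = 0.971). Both calls were lost after quantile normalization (0.18 and 0.20, adjusted p = 0.0758 and 0.0527), and the call in siHAND2 also without siHAND2 replicate 2 (0.20, adjusted p = 0.0723). RARA-AS1, which lies within RARA on the other strand, had 0.912 to 1.34 CPM in siCTR, 1.81 to 2.27 CPM in siMYCN and 1.53 to 1.71 CPM in siHAND2. Strand use in the counting is not given in the sources used here, so reads of RARA and RARA-AS1 cannot be told apart with certainty.

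RARG, the third RAR isotype (chromosome 12, 53210567 to 53232980), was the least abundant receptor per kb of exon. RARG measured 5.93, 5.54 and 5.31 CPM with siCTR, 5.36, 5.02 and 6.03 CPM with siMYCN and 8.29, 5.74 and 7.16 CPM with siHAND2. The siHAND2 replicate 2 library fell within the range of siCTR, so the groups overlapped. The difference from siCTR was -0.03 in siMYCN (adjusted p = 0.865) and 0.28 in siHAND2 (limma, adjusted p = 0.0662, 95% interval 0.05 to 0.51). With the replicate number as a block the siHAND2 difference of 0.28 passed the threshold (adjusted p = 0.0346), which raised the retinoid genes called in siHAND2 from 4 to 5. Without siHAND2 replicate 2 the siHAND2 value was 0.40 and passed the threshold (adjusted p = 0.0123). Between the knockdowns the difference was 0.31 (limma, adjusted p = 0.0476), close to the threshold, and the call was lost in 11 of 18 alternative settings. Among them were the removal of any siCTR library (0.31), of siMYCN replicate 1 (0.30) or 2 (0.26), and of siHAND2 replicate 1 (0.20) or 3 (0.29).

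The make-up of the RAR transcripts stood apart in siHAND2 for RARA and RARB, and the shares were not tested. Per kb of annotated exon, RARB made up 32.3%, 34.1% and 31.4% of the summed RARA, RARB and RARG level with siCTR, 28.8%, 34.1% and 29.0% with siMYCN, and 38.7%, 40.03% and 44.1% with siHAND2. RARB thus had a larger share in each siHAND2 library than in any other. RARA had a share of 53.5 ± 1.37% with siCTR, 57.3 ± 2.63% with siMYCN and 46.4 ± 3.46% with siHAND2 (SD, n = 3 libraries). For both RARA and RARB the siCTR and siMYCN shares overlapped. The RARG share was 13.6% to 14.5% with siCTR, 11.6% to 13.0% with siMYCN and 10.3% to 14.6% with siHAND2. The summed level of the 3 RAR genes was 7.83 ± 0.181 CPM per kb in siCTR, 8.81 ± 0.307 in siMYCN and 10.9 ± 0.243 in siHAND2. Shares within a library do not depend on the scaling of the libraries, but they do depend on the exon lengths assumed.

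**Figure D2:**
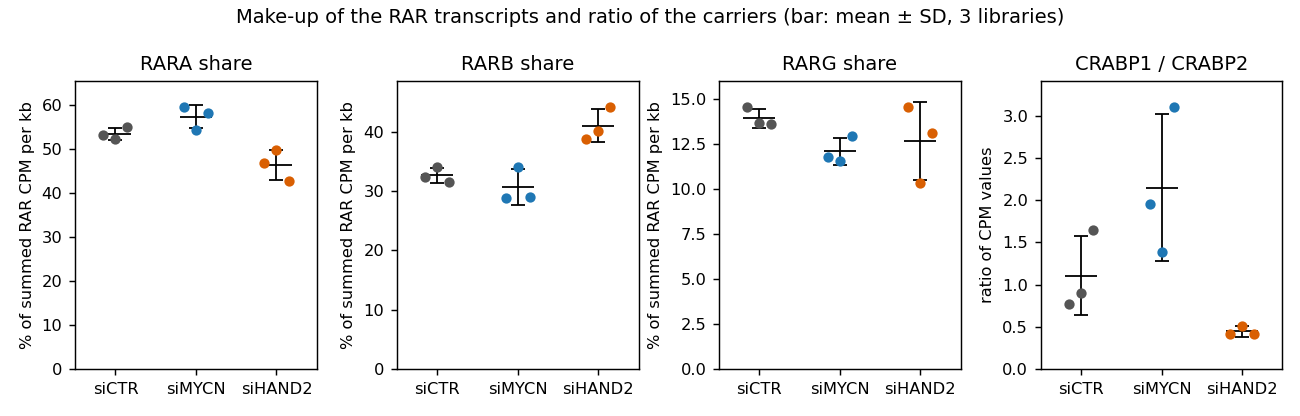
Share of RARA, RARB and RARG in the summed CPM per kb of the 3 genes (percent), and the ratio of CRABP1 to CRABP2 CPM, in each library with the mean and SD of 3 libraries; all axes start at 0. RARB makes up 38.7% to 44.1% in siHAND2 and at most 34.1% elsewhere, and the carrier ratio is between 0.409 and 0.514 in siHAND2 against 1.39 to 3.10 in siMYCN.

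RXRA, the partner receptor in most RAR dimers (chromosome 9, 134317098 to 134440585), was graded across the groups. It measured 25.1, 25.4 and 27.4 CPM with siCTR, 31.7, 29.0 and 31.5 CPM with siMYCN and 38.6, 37.9 and 31.9 CPM with siHAND2. The lowest siHAND2 library lay just above the highest siMYCN library, and no group overlapped another. RXRA rose to 139% of its control level in siHAND2 (0.46, limma, standard error 0.07, adjusted p = 0.000121) and to 118% in siMYCN (0.23, adjusted p = 0.0164). The rise in siHAND2 kept its call in all 18 alternative settings. That in siMYCN was lost in 6 of them: under median-ratio scaling (0.18, adjusted p = 0.063), under quantile scaling (0.18, adjusted p = 0.0751), and without siCTR replicate 1, siCTR replicate 2, siMYCN replicate 1 or siMYCN replicate 3 (0.21 to 0.22). Between the knockdowns RXRA was 0.22 higher in siHAND2 (limma, adjusted p = 0.0262), a call lost with no intensity trend (0.22, adjusted p = 0.0641) and without siMYCN replicate 2 (0.18), siHAND2 replicate 1 (0.17) or siHAND2 replicate 2 (0.19).

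RXRB, a second RXR isotype (chromosome 6, 33193588 to 33200688), was the most abundant of the 9 genes per kb of exon. RXRB measured 25.1, 25.9 and 26.5 CPM with siCTR, 29.7, 27.9 and 27.8 CPM with siMYCN and 27.5, 28.2 and 24.5 CPM with siHAND2. The siMYCN libraries lay above the siCTR libraries, with a difference of 0.14 that did not pass the threshold (limma, adjusted p = 0.098, 95% interval 0.01 to 0.27) but passed it without siHAND2 replicate 3 (0.14, adjusted p = 0.0432). In siHAND2 the difference was 0.05 (adjusted p = 0.597, 95% interval -0.08 to 0.18). RXRB overlaps SLC39A7 on the other strand by 244 bases; SLC39A7 measured 57.1 to 60.7 CPM in siCTR, 71.3 to 77.2 CPM in siMYCN and 60.5 to 70.4 CPM in siHAND2, and reads in the shared stretch cannot be assigned with certainty.

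**Figure D3:**
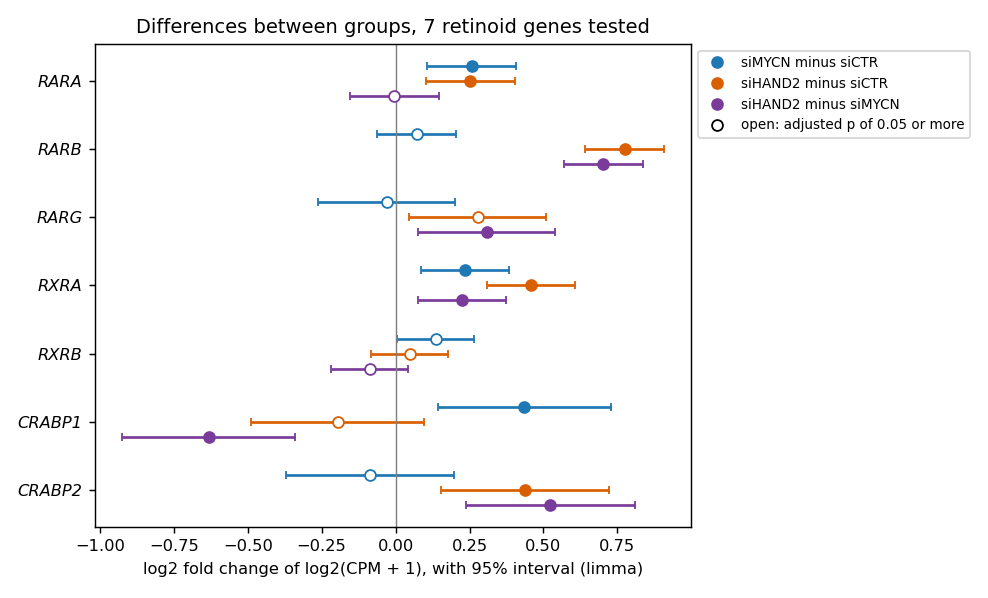
Log2 fold change of log2(CPM + 1) with its 95% interval (limma) for the 7 retinoid genes tested, in siMYCN minus siCTR, siHAND2 minus siCTR and siHAND2 minus siMYCN; filled points have an adjusted p below 0.05. RARB stands at 0.77 in siHAND2 and 0.07 in siMYCN, and the direct differences of CRABP1 (-0.63) and CRABP2 (0.52) lie on opposite sides of 0.

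The carrier genes were near the lower limit of the test, and they parted between the knockdowns. CRABP1 (chromosome 15, 78340353 to 78348225) measured 0.734, 1.05 and 1.09 CPM with siCTR, 1.73, 1.23 and 2.02 CPM with siMYCN and 0.756, 0.717 and 0.638 CPM with siHAND2. The siMYCN libraries were the highest and did not overlap the others. These values rest on 23 to 28 reads per siCTR library, 32 to 59 per siMYCN library and 18 to 23 per siHAND2 library. CRABP1 passed the filter on low values through the 3 siMYCN libraries and the siCTR libraries at 1.05 and 1.09 CPM. Without siMYCN it would not have been tested. In siMYCN CRABP1 rose by 0.44 (limma, standard error 0.14, adjusted p = 0.0212), where the ratio of the mean CPM values was 1.73, since the added 1 CPM understates the change of such a low gene. That call was lost without siCTR replicate 1 (0.35, adjusted p = 0.0976), siMYCN replicate 1 (0.41, adjusted p = 0.0632) or siMYCN replicate 3 (0.34, adjusted p = 0.11). In siHAND2 the difference from siCTR was -0.20 (adjusted p = 0.31, 95% interval -0.49 to 0.10).

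CRABP2 (chromosome 1, 156699606 to 156705816) measured 0.948, 1.16 and 0.664 CPM with siCTR, 0.886, 0.882 and 0.651 CPM with siMYCN and 1.84, 1.39 and 1.56 CPM with siHAND2. Here the siHAND2 libraries were the highest and lay apart from the other 6. They held 35 to 56 reads each, against 14 to 31 in siCTR and 19 to 23 in siMYCN. CRABP2 passed the filter on low values through the 3 siHAND2 libraries and 1 siCTR library. In siHAND2 it rose by 0.44 (limma, standard error 0.13, adjusted p = 0.0212, ratio of mean CPM 1.73), and the call was lost after quantile normalization (0.36, adjusted p = 0.0682), without siCTR replicate 3 (0.34, adjusted p = 0.0952) and without siHAND2 replicate 1 (0.37, adjusted p = 0.081). In siMYCN the difference was -0.09 (adjusted p = 0.659, 95% interval -0.37 to 0.20). The gene AL590666.4, on the other strand, overlaps CRABP2 by 5152 bases and had 0.245 to 0.625 CPM.

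Set directly against each other, the knockdowns gave opposite signs for the carriers. The log2 difference of siHAND2 from siMYCN was -0.63 for CRABP1 (limma, standard error 0.14, adjusted p = 0.00256), and 0.52 for CRABP2 (standard error 0.13, adjusted p = 0.008). Both calls held in the 17 alternative settings in which the genes could be tested. Each carrier gene entered the test through the knockdown in which it was higher. The ratio of CRABP1 to CRABP2 CPM was 0.774, 0.903 and 1.64 with siCTR, 1.95, 1.39 and 3.10 with siMYCN, and 0.411, 0.514 and 0.409 with siHAND2. All siHAND2 ratios were below all others, and siCTR and siMYCN overlapped.

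Transcripts of the catabolic enzymes were scarce. CYP26A1 (chromosome 10, 93073475 to 93077885) measured 0.581, 0.749 and 0.807 CPM with siCTR, 0.926, 0.701 and 0.480 CPM with siMYCN and 0.578, 0.566 and 0.530 CPM with siHAND2, on 14 to 23 reads per library. The siHAND2 libraries lay just under the siCTR libraries, and the siMYCN libraries spread over both. With no filter on low values limma gave a log2 difference from siCTR of -0.01 for siMYCN (adjusted p = 0.961) and of -0.13 for siHAND2 (adjusted p = 0.442, 95% interval -0.35 to 0.09). No increase of CYP26A1 in siHAND2 was detectable at this depth. The gene AL358613.3 overlaps CYP26A1 on the same strand by 3950 bases. It had 0 CPM in every siCTR library, 0, 0.091 and 0 CPM with siMYCN, and 0.038, 0.144 and 0.192 CPM with siHAND2. How reads in the shared stretch were assigned is not known, so the order of siHAND2 and siCTR for CYP26A1 is uncertain. CYP26B1 (chromosome 2, 72129238 to 72148038) had 0 or 1 read per library in siCTR, 1 or 2 in siMYCN and 3 in each siHAND2 library. No group exceeded 3 reads per library, the limit that a count of 0 allows, so no fold change is given.

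Levels of different genes can be compared only per length, here as CPM per kb of all annotated exons of a gene, which understates genes with many alternative exons. In siCTR the order was RXRB (6.62 ± 0.173 CPM per kb), RARA (4.18 ± 0.0435), RARB (2.55 ± 0.15), RXRA (2.15 ± 0.106), RARG (1.09 ± 0.0608), CRABP1 (0.999 ± 0.204), CRABP2 (0.854 ± 0.23), CYP26A1 (0.24 ± 0.0396) and CYP26B1 (SD, n = 3 libraries each). RARG, CRABP1 and CRABP2 did not differ beyond their spread in siCTR. In siHAND2 RARB reached 4.44 ± 0.21 CPM per kb, beside 5.04 ± 0.442 for RARA, and CRABP2 (1.48 ± 0.209) stood beside RARG (1.38 ± 0.249). In siMYCN the order from RXRB to RXRA was as in siCTR, followed by CRABP1 at 1.73 ± 0.419 CPM per kb and RARG at 1.07 ± 0.1.

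Other genes of the pathway were taken from lists by role. They were compared with siCTR, and the direct comparison of the knockdowns is given only for the genes induced by retinoic acid. Of 16 genes of uptake, storage and synthesis, 10 were in the table and 7 passed the filter; 3 of the 7 were higher and none lower in each knockdown, with a median log2 fold change of 0.15 in siMYCN and 0.02 in siHAND2. Over all genes tested, 24.5% and 18.1% were higher and the medians were 0.06 and 0.04. The 3 in siMYCN were STRA6, RDH11 and BCO2. BCO2 measured 0.825, 0.899 and 0.712 CPM with siCTR, 1.13, 1.76 and 1.55 CPM with siMYCN and 0.704, 0.637 and 1.03 CPM with siHAND2. It passed the filter only with the siMYCN libraries, the group in which it was highest (0.45, limma, adjusted p = 0.0185). The call of BCO2 was not followed through the alternative settings. STRA6, the membrane receptor that takes up vitamin A, measured 80.9, 87.3 and 85.8 CPM with siCTR, 135, 132 and 132 CPM with siMYCN and 127, 123 and 113 CPM with siHAND2. All knockdown libraries exceeded all siCTR libraries, with log2 fold changes of 0.65 (limma, adjusted p = 8.9e-08) and 0.51 (adjusted p = 6.3e-07). The retinol-metabolizing reductase gene RDH11 rose by 0.15 in siMYCN (limma, adjusted p = 0.0124), a call that both other scalings removed (0.10 each) and that was also lost without siCTR replicate 2 or siMYCN replicate 2 (0.14 and 0.13). In siHAND2, DHRS4 had a difference of 0.31 (adjusted p = 0.0279), lost in 6 of 18 alternative settings, and its near-identical copies make its reads uncertain. RDH10, which oxidizes retinol to retinal, had 0.22 (adjusted p = 0.0491), lost in 14 of 18. The call of DHRS4 was lost without siCTR replicate 1 (0.30), siCTR replicate 2 (0.28), siHAND2 replicate 1 (0.23) or siHAND2 replicate 2 (0.30), and that of RDH10 without any 1 of the 9 libraries (0.18 to 0.25).

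Of the enzymes that make retinoic acid itself, ALDH1A2 and ALDH1A3 were below the filter. ALDH1A2 had at most 4 reads in any library. ALDH1A3 measured 0.459, 0.636 and 0.38 CPM with siCTR, 1.17, 0.307 and 0.813 CPM with siMYCN and 0.23, 0.18 and 0.567 CPM with siHAND2, and the groups overlapped. ALDH1A1 was not analysed here.

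Among 13 other receptors that bind DNA with RXR or on similar half-sites, 9 were tested. None of the 9 was called in siMYCN (limma), where 35.9% of all genes tested were called. There 2 of the 9 had an unadjusted p below 0.05 (limma), beside 6487 of all 14495 genes. The medians of the 9 were 0.09 in siMYCN and -0.02 in siHAND2, beside 0.06 and 0.04 over all genes. In siHAND2, where 29.9% of all genes were called, 1 of the 9 was called. That receptor was NR2F1 (COUP-TFI), an orphan receptor of neural development, at 7.82 ± 0.833 CPM with siCTR, 8.53 ± 0.396 CPM with siMYCN and 14.1 ± 0.669 CPM with siHAND2 (SD, n = 3 libraries). In siHAND2 NR2F1 rose by 0.78 (limma, standard error 0.08, adjusted p = 1.97e-06), and the call held in all 18 alternative settings. In siMYCN it was 0.12 (adjusted p = 0.292).

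Of 14 cofactors and related genes, 13 were tested. In siMYCN 7 were higher and 1 was lower, and in siHAND2 the same 7 were higher (CREBBP, EP300, NCOA1, NCOA2, NCOA3, NCOR1 and NRIP1) and none was lower. The median was 0.16 in each. Over all genes tested, 24.5% were higher and 11.4% lower in siMYCN, 18.1% were higher and 11.8% lower in siHAND2, and the medians were 0.06 and 0.04. NRIP1, a ligand-dependent corepressor that retinoic acid induces, measured 153 ± 6.22 CPM with siCTR, 178 ± 8.30 CPM with siMYCN and 224 ± 12.02 CPM with siHAND2 (SD, n = 3 libraries). It rose by 0.22 (limma, adjusted p = 0.00278) and 0.54 (adjusted p = 3.74e-07). The coactivator gene NCOA2 rose by 0.30 in siMYCN (adjusted p = 7.49e-05) and 0.43 in siHAND2 (adjusted p = 1.97e-06). NCOA1 rose by 0.42 in siMYCN (adjusted p = 0.000101), and NCOA3 by 0.30 in siHAND2 (adjusted p = 0.000412). CREBBP, a histone acetyltransferase recruited by ligand-bound receptors, rose by 0.27 (adjusted p = 0.00055) and 0.32 (adjusted p = 0.000158). The gene that was lower in siMYCN was HDAC3 (-0.13, limma, adjusted p = 0.0456), the deacetylase of the corepressor complex. In siHAND2 HDAC3 was at -0.11 (adjusted p = 0.0851). Also close to the threshold were EP300 in siMYCN (0.17, limma, adjusted p = 0.0447) and NCOR1 in siHAND2 (0.13, adjusted p = 0.0466). The calls of HDAC3, EP300 and NCOR1 were not followed through the alternative settings.

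**Figure D4:**
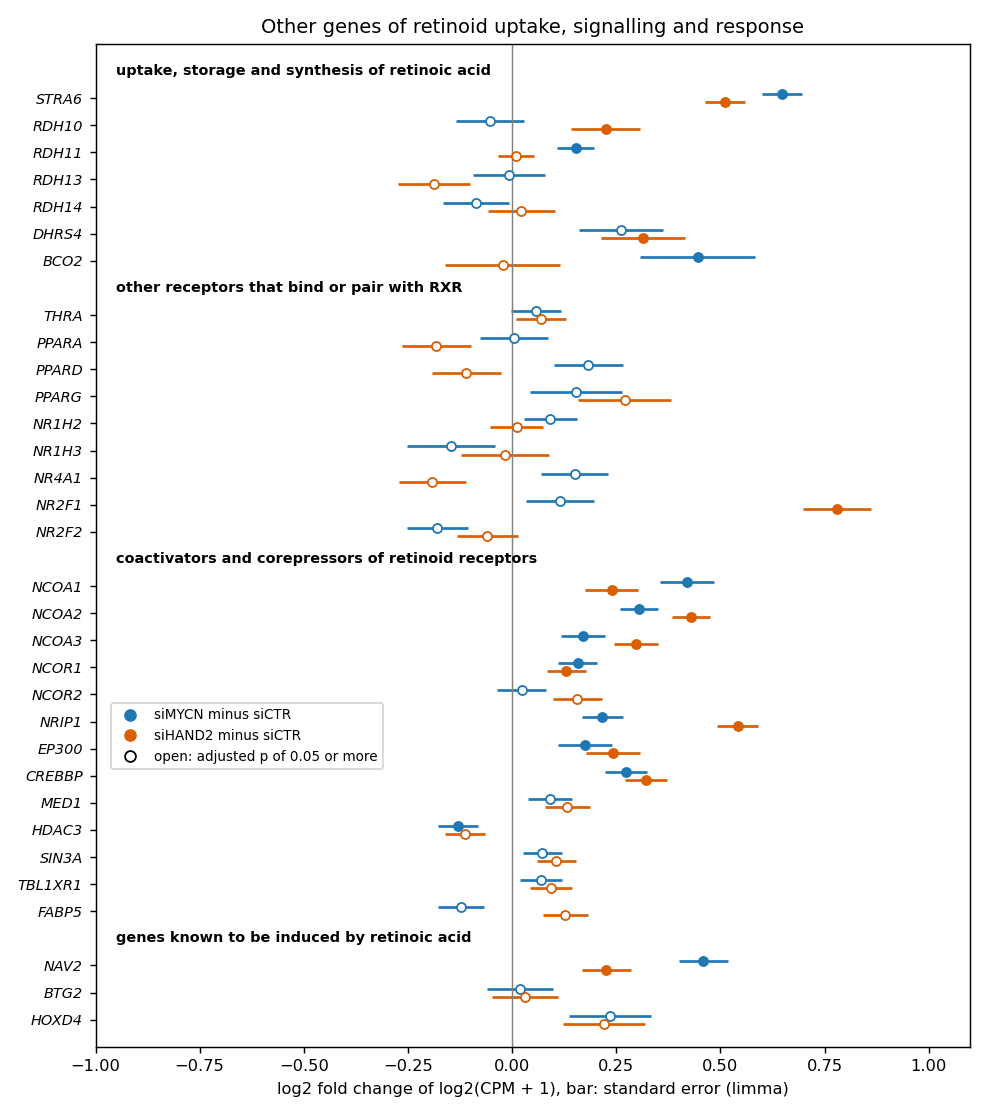
Log2 fold change of log2(CPM + 1) with its standard error (limma) for the tested genes of the pathway lists outside the 9 described above, in siMYCN and siHAND2 against the same siCTR libraries; filled points have an adjusted p below 0.05. STRA6 is to the right of 0 in both, and NR2F1 (0.78) stands out in siHAND2.

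Of 17 genes known to be induced by retinoic acid, 4 are among the 9 genes described above. The other 13 left 5 to test, of which 3 (NAV2, NRIP1 and STRA6) were higher in siMYCN and in siHAND2. None was lower, and the medians were 0.24 and 0.23. STRA6 and NRIP1 were already counted in the lists of uptake and cofactors, so of the 3 only NAV2 is new here. Over all genes tested, 24.5% and 18.1% were higher, with medians of 0.06 and 0.04. Between the knockdowns NRIP1 was higher in siHAND2 (0.33, limma, adjusted p = 9.66e-05). NAV2 (-0.23, limma, adjusted p = 0.00726) and STRA6 (-0.14, limma, adjusted p = 0.0449) were lower there, and BTG2 and HOXD4 were not called. In that comparison 11.4% of all genes tested were higher and 15.5% lower. These calls between the knockdowns were not followed through the alternative settings. NAV2, which acts in neurite growth, rose from 60.03 ± 3.17 CPM to 82.9 ± 6.31 CPM in siMYCN (0.46, limma, adjusted p = 1.87e-05) and 70.3 ± 3.57 CPM in siHAND2 (0.23, adjusted p = 0.00833). The NAV2 call in siHAND2 was lost without siCTR replicate 2 (0.20, limma, adjusted p = 0.0506) or siHAND2 replicate 2 (0.19, adjusted p = 0.0507). BTG2, an antiproliferative gene, had 0.02 and 0.03, and HOXD4 had 0.24 (adjusted p = 0.0729) and 0.22 (adjusted p = 0.103). RARRES1 and RARRES2 stayed below the filter, with at most 8 reads per library.

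The genes most like RARB over the 9 libraries, by Pearson correlation of log2(CPM + 1) among 11201 genes averaging 5 CPM or more, were SLITRK6 (r = 0.993), ST8SIA4 (r = 0.993) and RSRC1 (r = 0.992). SLITRK6 had group means of 63.7, 66.7 and 100.8 CPM in siCTR, siMYCN and siHAND2, ST8SIA4 had 19.7, 21.3 and 42.6 CPM, and RSRC1 had 68.9, 69.1 and 80.3 CPM. For CRABP1 they were HCN2 (r = 0.978; 6.45, 10.00 and 5.32 CPM), MYO1C (r = 0.956; 15.7, 18.9 and 14.7 CPM) and NDEL1 (r = 0.952; 26.7, 31.6 and 24.3 CPM). These correlations describe 9 libraries in 3 groups, are the highest of many, and carry no test.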

How the data were processed

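The authors deposited 1 table of CPM values, reads per gene scaled to the same total in each library, with a constant of 0.0001 in every value; all 9 value columns were used. Reads were aligned with STAR 2.5.1 and handled in Partek, per the submitters' processing notes. These notes name hg19/GRCh37, but of the table's starts 91.4% lay within 5000 bases of the GRCh38 start of the same symbol and 5.6% of the GRCh37 start, so coordinates are given as GRCh38, counted from 1. Counting rules, strand use and annotation are not given in the sources used here. Low values, of 20 reads or fewer, came out whole (within 0.02 read) in only 79.3% to 80.8% of cases, too few for a count test.

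Group means of log2(CPM + 1) were estimated together from all 9 libraries (limma 3.58.1 in R 4.3.3, intensity trend) for the 14495 genes that reached 1 CPM in 3 or more libraries. Tests were two-sided and adjusted over all genes, with a threshold of 0.05. The model was checked on simulated data. Errors are SDs or standard errors. The model had no replicate block. The labels give replicate numbers. Deviations from the group means correlated over 0.1 in all 3 same-numbered pairs of siCTR with siMYCN (0.102 to 0.216). The same held for siCTR with siHAND2 (0.121 to 0.266). Counting all groups, 8 of 9 same-numbered and 3 of 18 different-numbered pairs exceeded 0.1. Whether the numbers pair the libraries is thus not settled, and the blocked value is given where it changes a call. Exon lengths came from the GENCODE annotation by symbol; promoter windows came from RefSeq (GRCh38.p14), where all 9 symbols matched.

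Alternatives were pseudocounts of 0.1 and 5, no filter, a filter of 5 CPM, median-ratio and quantile scaling, only the groups compared, no trend, a replicate block and leaving out each library. The 9 genes are always named. Of the other lists, up to 4 called genes per contrast with the smallest p and a mean of at least 5 CPM are named, and other listed genes were chosen after their values were seen. The genes and lists were chosen with earlier results of these data known. 1 gene of these lists is not reported here and was left out of their counts.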

Additional observations from a re-analysis of the deposited data

How the results depend on the processing

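The number of genes called stayed within 1.5 times its value in every alternative for all 3 comparisons; leaving out 1 library gave 4013 to 5854 genes for siMYCN against siCTR, 3075 to 4290 for siHAND2 against siCTR and 2909 to 3940 for siHAND2 against siMYCN. The number of retinoid genes called in siMYCN fell from 3 to 1 after quantile scaling and lay between 1 and 4 with 1 library left out. In siHAND2 it fell from 4 to 2 after quantile scaling. For siHAND2 against siMYCN it fell from 5 to 3 with a filter of 5 CPM, which removes both carriers, and to 3 with no intensity trend, and lay between 3 and 5 with 1 library left out; the cause was not tested in the other cases. The reversed values were all near 0. Leaving out 1 library gave -0.091 to 0.0206 for RARG in siMYCN, -0.186 to 0.00198 for CRABP2 in siMYCN, and -0.0668 to 0.0659 for RARA between the knockdowns, where median-ratio scaling gave 0.0143 and quantile scaling 0.023. With the replicate block, 5895 genes were called for siMYCN and 5089 for siHAND2 against siCTR; RARG in siHAND2 passed the threshold (adjusted p = 0.0346), and the block changed no other call among the retinoid genes and the listed genes named by the rule. Between the knockdowns 1 of the 3 same-numbered pairs had a correlation of -0.13, which leaves the pairing by number unsettled. The block gave 4689 genes there, and 7 of all 9 libraries correlated best with their own number. Depth limits the carriers and CYP26 genes, which rest on fewer than 60 reads per library; intervals from such counts would cover counting error only.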
